A study of Mus musculus with 4 samples.

Results

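The genes described here encode the proteins of the cytosolic ribosome, in neural stem cells cultured from the embryonic mouse cortex. They were chosen by name: protein-coding genes whose symbol starts with Rpl or Rps and a digit, plus Rplp0, Rplp1, Rplp2 and Rpsa, without symbols that hold -ps and without the Rps6k kinases. The rule found 86 of the 55414 genes in the count files, 52 with large subunit symbols and 34 with small subunit symbols. Another 7 symbols of this form were left out because the annotation lists them as pseudogenes. The rule also takes Rps19bp1, which encodes a protein that binds a ribosomal protein and is not itself a part of the ribosome. RNA sequencing was done on 2 libraries of Mettl4 knockout cells and 2 libraries of wild type cells. Both genotypes were cortical cells of embryonic day 14.5 embryos, expanded as floating spheres with EGF and basic FGF and then plated as a monolayer. The Mettl4 protein is an adenosine methyltransferase. The labels do not say which part of the gene was deleted, nor whether the libraries came from separate embryos, so the p-values rest on library-to-library spread that could be technical.

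The ribosome translates messenger RNA into protein. Its small subunit reads the codons and its large subunit joins the amino acids. Dividing cells such as neural stem cells spend much of their transcription and translation on making new ribosomes, and the protein components are needed in matched amounts. The messenger RNAs of ribosomal proteins share a stretch of pyrimidines (C or T in the DNA) at the first transcribed base, called the terminal oligopyrimidine tract, through which the mTOR pathway adjusts their translation. The same pathway phosphorylates Rps6, a protein of the small subunit.

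Sequences around the annotated start are shown because this tract is the feature that the family is known for. The windows are from RefSeq on build GRCm38.p6 and hold 15 bases before the start and 15 from it on, so that base 16 is the annotated start, and capitals mark the longest unbroken run of C and T.
Rps6: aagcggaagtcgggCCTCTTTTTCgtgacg
Rps27: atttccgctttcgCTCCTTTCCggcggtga
Rplp2: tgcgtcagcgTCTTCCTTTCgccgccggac
Rpl35: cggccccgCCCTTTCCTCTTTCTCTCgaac
Rpl22l1: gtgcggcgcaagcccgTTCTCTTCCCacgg
Rpl39: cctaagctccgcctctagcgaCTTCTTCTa
These lie on the strand of the gene at chr4:86857353-86857382 (minus), chr3:90213634-90213663 (minus), chr7:141447636-141447665 (plus), chr2:39005117-39005146 (minus), chr3:28805493-28805522 (plus) and chrX:37085208-37085237 (minus), in the order of the names. In Rps6 and Rplp2 the run holds 10 bases and crosses the start. In Rpl22l1, a paralog of Rpl22, the run of 10 bases lies just after the annotated start.

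A window of 300 bases was found for 65 ribosomal protein genes, Rps19bp1 not counted. A C at the start followed by 4 more C or T was present in 14 of the 65, or 21.5%, and in 3.01% of the 27025 genes with a window. A start inside a run of at least 5 C or T was present in 21 of 65, or 32.3%, and in 11.8% of all genes. The letters CCGGAA, on either strand, occurred in 36 of 65 windows, or 55.4%, and in 16.7% of all genes. CACGTG occurred in 6 of 65, or 9.23%, and in 8.09% of all genes. TATAAA, on either strand, occurred in 7 of 65, or 10.8%, and in 15.7% of all genes. These counts describe letters in fixed windows, in which the annotated start may differ from the base where transcription begins.

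The libraries held 18150389 and 19310668 counts in the knockout, and 12812064 and 16883734 in the wild type. The deposited values are raw read counts per gene. Levels are given as CPM, the count relative to the library size after TMM scaling, and levels of different genes are compared as CPM per kilobase of annotated transcript. Mettl4 itself read 15.6 and 17.6 CPM in knockout replicates 1 and 2, and 63.8 and 66.6 CPM in the wild type (log2 fold change -1.97, SE 0.17; adjusted p = 0.00513 by the quasi-likelihood test of edgeR). The summed level of 10 neural stem and radial glial markers was 5273 and 6335 CPM in the knockout and 5379 and 5900 CPM in the wild type. Markers of other cells were also counted, with 1137 and 1358 against 1023 and 1297 CPM for 6 neuronal genes, 344 and 297 against 211 and 296 CPM for 5 astrocyte genes, and 1410 and 1376 against 1381 and 1259 CPM for 6 oligodendrocyte lineage genes. Single genes made up much of these sums. Map2 alone had a mean of 1178 CPM over the libraries, which leaves little for the other neuronal genes. The highest in the other lists were Fabp7 (stem cell and radial glial, 2142 CPM), Olig1 (oligodendrocyte lineage, 840 CPM) and Aldh1l1 (astrocyte, 178 CPM). Low sums were found for 5 genes of microglia and macrophages (6.49 and 5.09 CPM in the knockout, 6.49 and 5.12 in the wild type), 5 of endothelium (2.74 and 2.46 against 2.34 and 3.35), 6 of mesenchymal and mural cells (3.96 and 3.39 against 9.74 and 7.20) and 5 of red blood cells (10.7 and 10.8 against 11.6 and 8.48). Of all these genes 0 were without a count in all 4 libraries.

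Ribosomal protein genes took 3.5% and 4.60% of all counts in knockout replicates 1 and 2, and 3.64% and 3.88% in wild type replicates 1 and 2. The highest and the lowest share were both in knockout libraries, so the groups overlapped. The mean was 4.05% ± 0.78 (SD, n = 2) in the knockout and 3.76% ± 0.172 (SD, n = 2) in the wild type, a difference of 0.29 percentage points, smaller than the spread within the knockout. Of the counts on ribosomal protein genes, paralogs left out, the small subunit held 42.9% and 42.5% in the knockout and 43.7% and 43.1% in the wild type. The small subunit was thus slightly lower in both knockout libraries than in both wild type libraries, with a knockout minus wild type difference of -0.62 percentage points, against an SD of 0.29 in the knockout and 0.44 in the wild type (n = 2 each). It was also lower in replicate 2 than in replicate 1 of both groups. The limit of a test on 2 against 2 libraries, given below for Rpl22l1, holds here too.

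Levels differed widely between the genes. The mean over the libraries, in CPM per kilobase of the principal transcript, had a median of 484 over the 83 genes that passed the low-count filter, with quartiles of 255 and 784. The acidic stalk protein gene Rplp1 was highest. It stood at 1498 and 2118 CPM per kilobase in the knockout, and at 1612 and 1837 in the wild type. Among the next were the small subunit genes Rps4x with a mean of 1409 and Rps2 with 1198, and the large subunit gene Rpl7 with 1152 CPM per kilobase. Rplp1 was above Rps4x, Rps2 and Rpl7 in each of the 4 libraries. Rps4x was likewise above Rps2 and Rpl7 within each of the 4 libraries. Rps2 was above Rpl7 except in knockout replicate 2, so the order of Rps2 and Rpl7 is not set. The order also depends on the length used. By coding length Rpl41, which encodes one of the smallest known proteins, ranked 1 and Rplp1 ranked 2, and by the union of exons Rplp1 ranked 1 and Rplp0 ranked 2. The lowest tested genes were Rps27rt (1.96), Rps19bp1 (16), Rpl7l1 (49.0), Rpl36a (50.3) and Rps15a (70.6 CPM per kilobase). For Rps15a the annotated principal transcript of 5179 bases is far longer than its coding length of 390 bases, and by coding length it ranked higher, at 33 of 83.

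Only 3 of the 86 genes did not pass the low-count filter, and each is a paralog known for expression in a restricted set of tissues. Rpl10l, a testis paralog of Rpl10, and Rpl39l, a testis paralog of Rpl39, had 0 counts in all 4 libraries. This allows at most 0.155 to 0.165 CPM in the knockout and 0.178 to 0.234 CPM in the wild type. These limits are 3 counts per library over the library total without TMM scaling, and cover counting error only. Rpl3l, a striated muscle paralog of Rpl3, had 1 and 1 counts in the knockout and 6 and 0 in the wild type. Rps27rt passed with 17 and 12 counts in the knockout and 7 and 14 in the wild type. With Rpl7l1, Rpl22l1, Rpl36al and Rps27l also set aside as paralogs, and Rps19bp1 as no ribosomal protein, the other 77 genes had at least 273 counts in every library.

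No ribosomal protein gene passed an adjusted p of 0.05 between knockout and wild type in the edgeR test, which called 0.00502% of the 19912 genes tested. Of the 83 tested genes 0 were called higher, where 0% of all genes were, and 0 were called lower, where 0.00502% were. At an unadjusted p under 0.05 there were 0 of 83, where 2.77% of all genes were. DESeq2 and limma-voom likewise called 0 ribosomal protein genes, where they called 6 and 1 of the 19912 genes tested. At an unadjusted p under 0.05 each had 0 of 83, where DESeq2 had 1.46% of all genes and limma-voom 2.75%. The log2 fold change ran from -0.12 to 0.43, and 0 genes differed by more than 1.5-fold between the group means. The share of all genes tested that differed by more than this was not computed. In each of the 83 the 95% interval included 0. The widest reached from -1.10 to 1.40, for Rps27rt, and the median standard error was 0.22, so that differences of the size seen here were not detectable with 2 libraries in each group.

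**Figure D1:**
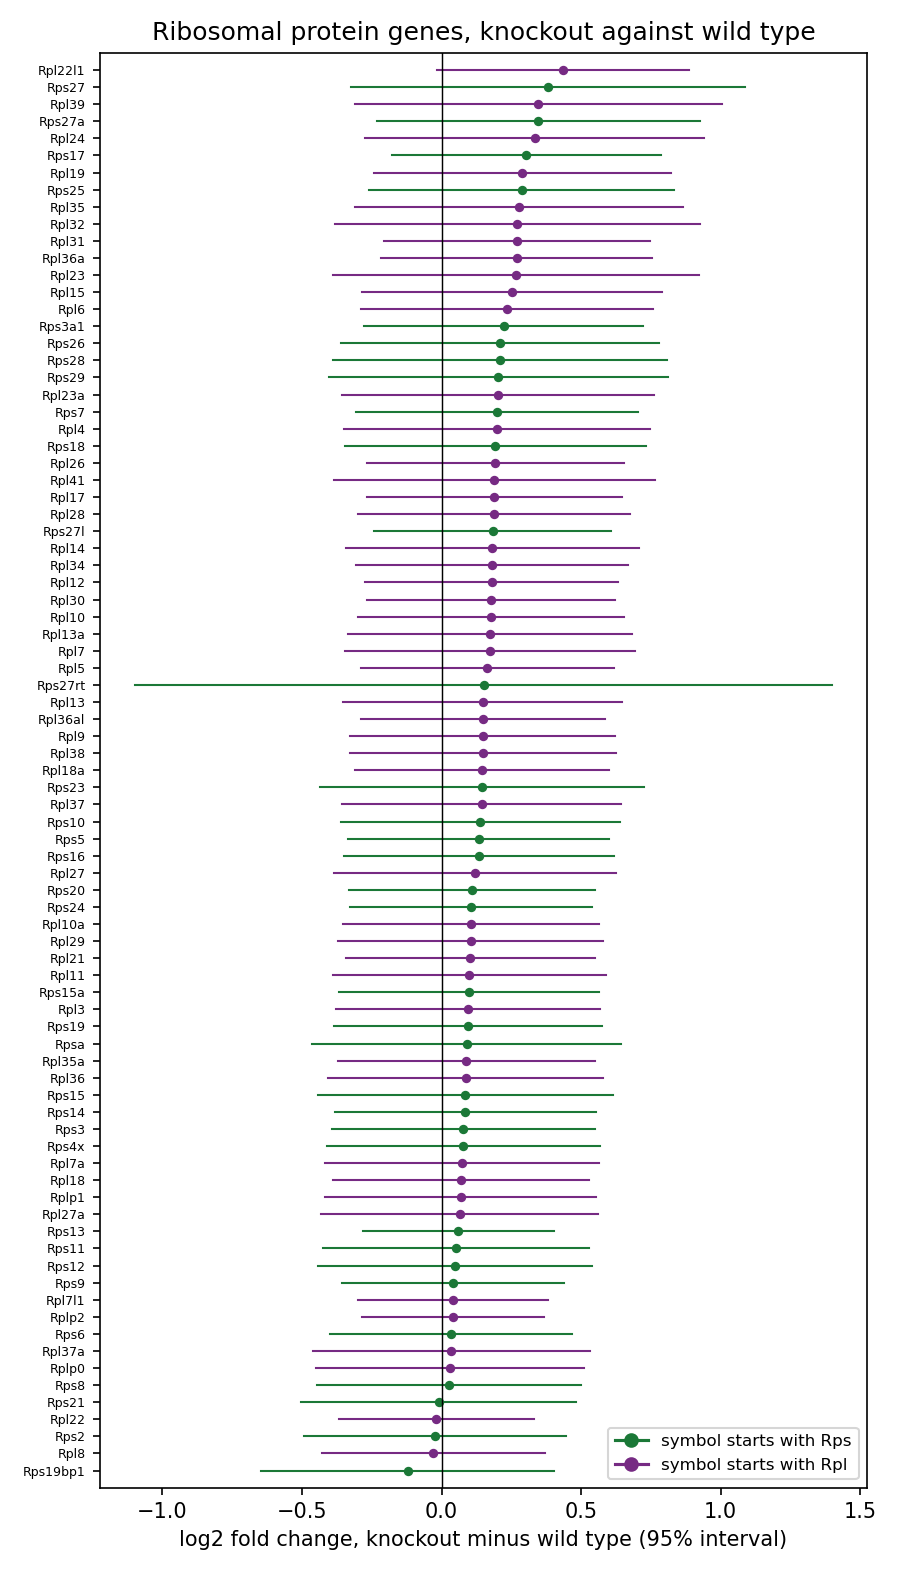
Log2 fold change, knockout minus wild type, of the 83 tested ribosomal protein genes (x axis, points) with 95% intervals (lines), sorted from top to bottom by size and coloured by the start of the symbol. Points lie right of 0 for 78 genes and every interval crosses 0.

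The direction was nevertheless alike over the family. Of the 83 genes 78 had a positive log2 fold change, or 94.0%, against 49.7% of all genes tested, and the median was 0.14 against -0.0013 over all genes tested. The median was 0.11 for 31 small subunit genes and 0.17 for 46 large subunit genes, with paralogs left out. Groups that did not overlap were rare. Both knockout libraries lay above both wild type libraries for 1 of the 83 genes, Rpl22l1, where 12.5% of all genes tested did so, and 0 of 83 lay below in both, where 14.9% of all genes did.

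The positive median rested on 1 library. In knockout replicate 2, 82 of the 83 genes lay above the wild type mean, with a median shift of 0.40 in log2 CPM, where 48.2% of all genes tested lay above. In knockout replicate 1, 3 of the 83 lay above the wild type mean, with a median shift of -0.16, where 51.7% of all genes did. The shifts ran from -0.03 to 0.80 in knockout replicate 2 and from -0.40 to 0.36 in knockout replicate 1. With the paralogs and Rps19bp1 left out, 77 of 77 genes were above the wild type mean in knockout replicate 2 and 0 of 77 in knockout replicate 1. The wild type libraries parted the same way but less. Wild type replicate 2 exceeded replicate 1 for 77 of the 83 genes, by a median of 0.23, where 49.9% of all genes were higher in replicate 2. Knockout replicate 2 exceeded replicate 1 for 82 of 83, by a median of 0.56, where 46.8% of all genes were higher in replicate 2. Knockout replicate 2 was the highest of the 4 libraries for 82 genes. The lowest was knockout replicate 1 for 53 genes and wild type replicate 1 for 30. The shares of all genes tested with their highest or lowest value in these libraries were not computed.

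**Figure D2:**
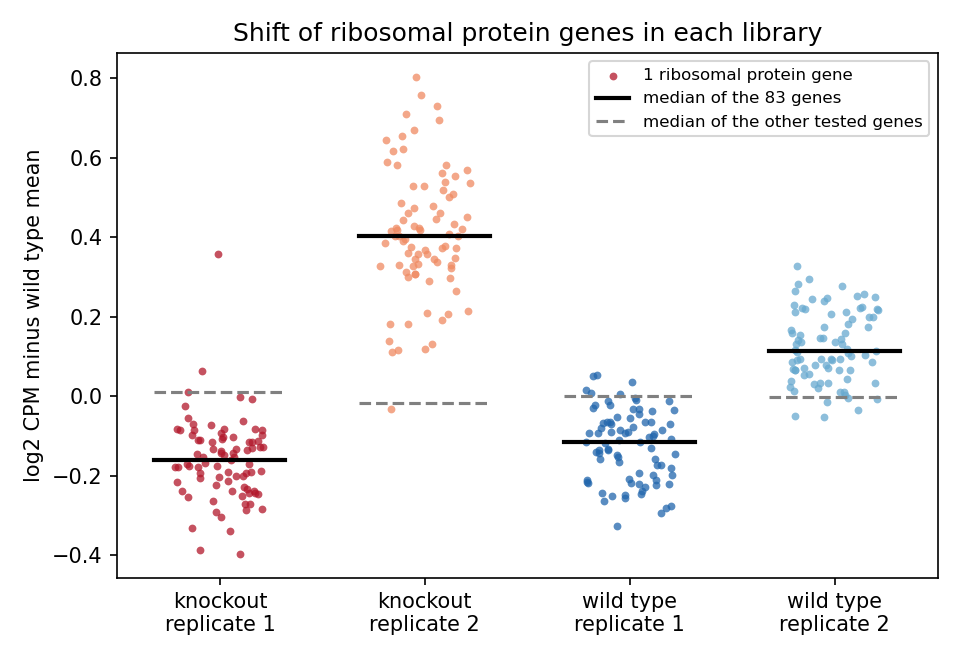
Log2 CPM minus the wild type mean (y axis) of 83 ribosomal protein genes in each library (x axis). Points are genes, black lines their median (-0.16, 0.40, -0.11 and 0.11 from left to right) and dashed lines the median of the other tested genes, which stays near 0.

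Without knockout replicate 2, 2 of the 83 genes had a positive log2 fold change and the median was -0.17. Without knockout replicate 1, 82 were positive and the median was 0.40, with 38 genes at an unadjusted p under 0.05, where 8.32% of all genes were, and 0 called (smallest edgeR adjusted p = 0.0772, for Rpl22l1). In that comparison 0.236% of all genes tested were called in either direction, and 0.0753% were called higher. The sign of the family's difference between the genotypes therefore depended on which knockout library was used.

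Members differed in how far they moved in knockout replicate 2. The 5 with the largest shift, picked out after their values were seen, were Rps27 (0.80), Rpl39 (0.76), Rpl22l1 (0.73), Rps27a (0.71) and Rpl24 (0.70 in log2 CPM over the wild type mean). Rps27, a small subunit protein with a zinc finger, read 70.4 and 135 CPM in the knockout, and 63.9 and 93.9 CPM in the wild type. Rps27a encodes a small subunit protein fused to ubiquitin. It read 299 and 523 CPM in the knockout and 276 and 371 CPM in the wild type (log2 fold change 0.35, 95% interval -0.23 to 0.92). In both, knockout replicate 2 was high and knockout replicate 1 lay between the wild type libraries. Rps27rt, at very low counts, shifted by -0.03. The smallest shifts in knockout replicate 2 among genes other than paralogs and Rps19bp1 were those of Rpl8 (0.12), Rps2 (0.12) and Rplp2 (0.13).

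Rpl31 was, with Rpl22l1 and Rps27a, among the 4 genes with the smallest p in the upward direction. This large subunit gene read 141 and 205 CPM in the knockout and 119 and 167 CPM in the wild type (log2 fold change 0.27, SE 0.21; edgeR unadjusted p = 0.235). Its groups overlapped, with knockout replicate 1 between the wild type libraries.

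A negative log2 fold change was found for 5 genes, of which Rps21 (-0.0094), named after its value was seen, was nearest to 0. Rps19bp1 read 10.7 and 15.1 CPM in the knockout and 13.4 and 14.6 CPM in the wild type (log2 fold change -0.12). Rpl8, a large subunit protein close to the catalytic centre, read 441 and 545 CPM in the knockout, and 506 and 500 CPM in the wild type (-0.03). Rps2, a small subunit protein, read 1167 and 1433 CPM in the knockout and 1368 and 1273 CPM in the wild type (-0.02). Rpl22 read 138 and 174 CPM in the knockout, and 156 and 160 CPM in the wild type (-0.02). In each of these 4 the wild type values lay between the knockout values.

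The stalk of the large subunit recruits elongation factors and consists of Rplp0, Rplp1 and Rplp2. Rplp0 read 1329 and 1656 CPM in the knockout, and 1428 and 1495 CPM in the wild type (log2 fold change 0.03, 95% interval -0.45 to 0.51). Rplp1 read 747 and 1057 CPM in the knockout and 804 and 917 CPM in the wild type (0.07). Rplp2 read 159 and 181 CPM in the knockout and 170 and 162 CPM in the wild type (0.04). All 3 had their lowest and highest value in the knockout. Rpl5 and Rpl11 assemble with the 5S ribosomal RNA and, when free, bind the p53 regulator Mdm2. Rpl5 read 578 and 796 CPM in the knockout and 586 and 641 CPM in the wild type (0.16), and Rpl11 396 and 618 against 451 and 495 CPM (0.10).

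Rpsa, a small subunit protein that is also known as a laminin receptor, had the highest mean CPM of the family. It read 1255 and 1888 CPM in the knockout, and 1342 and 1611 CPM in the wild type (log2 fold change 0.09). Rps6, the mTOR pathway's substrate, read 585 and 763 CPM in the knockout and 652 and 663 CPM in the wild type (0.03). Components that the naming rule misses followed the same library order. Fau, which encodes Rps30 fused to a ubiquitin-like protein, read 291 and 444 CPM in the knockout and 331 and 334 CPM in the wild type (0.15). Rack1, a scaffold protein of the small subunit, read 798 and 1087 against 826 and 877 CPM (0.15). In both, knockout replicate 1 was lowest and knockout replicate 2 highest.

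Paralogs were unequal. Rpl22l1 (ENSMUSG00000039221, chromosome 3) read 117 and 185 CPM in knockout replicates 1 and 2, and 109 and 115 CPM in the wild type. It was the gene with the smallest p of the family (log2 fold change 0.43, SE 0.20, 95% interval -0.02 to 0.88; edgeR unadjusted p = 0.0576, adjusted p = 1). The log2 fold change was 0.063 without knockout replicate 2 and 0.73 without knockout replicate 1. Knockout replicate 1 lay just above the higher wild type library and knockout replicate 2 well above it. Its partner Rpl22, whose protein represses Rpl22l1 in mouse, is given above with wild type values between those of the knockout. Per base of transcript, Rpl22l1 made up 42.1% and 47.8% of the pair in the knockout, and 37.5% and 38.0% in the wild type. The mean share was 44.9% ± 4.05 (SD, n = 2) in the knockout and 37.8% ± 0.395 (SD, n = 2) in the wild type. These groups did not overlap, and the difference of 7.15 percentage points was 4.29 without knockout replicate 2 and 10.0 without knockout replicate 1. An exact two-sided permutation test on 2 against 2 libraries cannot give a p under 0.333, so none was made.

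**Figure D3:**
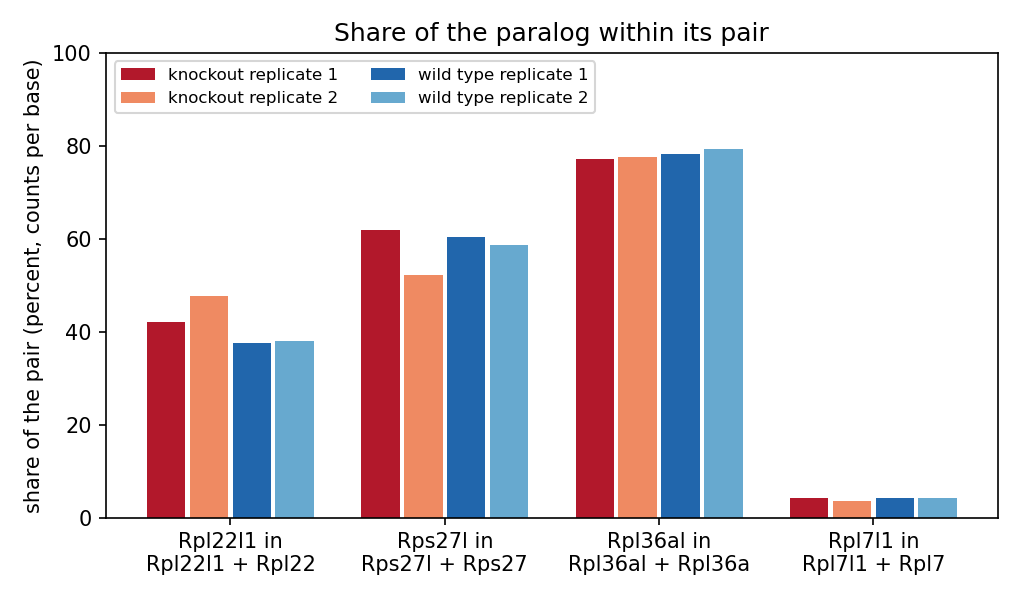
Share of the paralog in the summed counts per base of its pair (y axis, percent) for 4 pairs (x axis) in each library (bars, no error since each is 1 library). Rpl22l1 holds 42.1% and 47.8% in the knockout against 37.5% and 38.0% in the wild type, and the other pairs differ less or overlap.

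Rps27l, a paralog of Rps27 that p53 induces, read 166 and 213 CPM in the knockout and 141 and 193 CPM in the wild type. Per base of transcript it made up 62.0% and 52.2% of the pair with Rps27 in the knockout, and 60.4% and 58.7% in the wild type, so the groups overlapped. Rpl36al exceeded Rpl36a. It held 77.2% and 77.6% of the pair in the knockout, and 78.2% and 79.4% in the wild type, which did not overlap, with a knockout minus wild type difference of -1.43 percentage points. The difference was -2.01 without wild type replicate 1 and -0.86 without wild type replicate 2. The limit of a test on 2 against 2 libraries, given for Rpl22l1, holds here too. Rpl36al read 79.5 and 119 CPM in the knockout and 80.6 and 98.2 CPM in the wild type, and Rpl36a 21.6 and 31.5 against 20.6 and 23.4 CPM. Rpl7l1, a paralog of Rpl7, held 4.28% and 3.65% of the pair in the knockout, and 4.28% and 4.26% in the wild type. The difference of -0.30 percentage points was 0.014 without knockout replicate 2 and -0.62 without knockout replicate 1. Its share depends on the annotated length of 2606 bases, and by coding length it was 9.91% and 8.52% in the knockout and 9.91% and 9.85% in the wild type.

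The X-linked genes Rpl10, Rpl39, Rps4x and Rpl36a had a median log2 fold change of 0.22. Rpl39, a very small protein of the exit tunnel, read 169 and 323 CPM in the knockout, and 164 and 223 CPM in the wild type (0.35, 95% interval -0.31 to 1.00). Rpl10 read 756 and 1066 CPM in the knockout and 808 and 804 CPM in the wild type (0.18), and Rps4x 1217 and 1604 against 1383 and 1290 CPM (0.08). Rpl3 read 933 and 1247 against 997 and 1043 CPM (0.10), and Rpl7 1161 and 1680 against 1198 and 1322 CPM (0.17). Rps4l, listed as a transcribed pseudogene and therefore not of the family, had 89 and 84 counts in the knockout and 44 and 25 in the wild type (log2 fold change 0.96, SE 0.37; edgeR unadjusted p = 0.027, adjusted p = 1). Rps4l read 4.70 and 4.60 CPM in the knockout and 3.32 and 1.52 CPM in the wild type. Its 2 knockout values were thus close, whereas those of Rps4x were the lowest and the highest of the 4 libraries. Its sequence resembles Rps4x, and whether reads of Rps4x were counted for it was not tested.

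Ribosomal protein genes have many processed pseudogenes in the mouse genome, and reads of a gene and its copy can be confused. The 300 genes with a -ps symbol of this family held 17795 and 27488 counts in the knockout, and 13018 and 20323 in the wild type. That was 0.098% and 0.142% of the library in the knockout, and 0.102% and 0.12% in the wild type, the same library order as for the genes themselves. Adding these counts to the parent genes left 78 of 83 positive and the median at 0.15. The log2 fold change of Rpl36a was 0.21 with these counts and 0.27 without, and that of Rpl36al was 0.15 in both. The paralog shares were not computed with these counts.

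Among other genes the difference between replicates went with annotated transcript length. Among ribosomal protein genes its median was similar up to and above 1000 bases, but not even within the shorter group. Between the knockout replicates it was 0.69 up to 500 bases, 0.58 over 500 to 750 and 0.51 over 750 to 1000. Over 1000 to 1500 bases it was 0.56. Ribosomal protein transcripts are short, and 59 of the 83 had an annotated length of up to 1000 bases. Other genes of that length with a mean of at least 16 CPM (635 genes) were higher in knockout replicate 2 than in knockout replicate 1 by a median of 0.35 in log2 CPM, and the 59 ribosomal protein genes by 0.58. Above 1000 bases the median was 0.01 for 8002 other genes and 0.55 for 24 ribosomal protein genes. Between wild type replicates 2 and 1 the medians up to 1000 bases were 0.20 for other genes and 0.23 for ribosomal protein genes, and above 1000 bases 0.00 and 0.22. With the trend of length removed from each library, 80 of 83 genes had a positive log2 fold change, knockout minus wild type, with a median of 0.17. This removal was added after the data were seen, and its value compares the genotypes, not the replicates. Among the 83 genes the difference between knockout replicates 2 and 1 had a Spearman rho of -0.27 with length and -0.33 with mean level, and of 0.55 with the difference between wild type replicates 2 and 1. These describe genes that share libraries, and genes are not independent. The share of counts in the mitochondrial genome was 1.46% and 2.12% in the knockout and 1.26% and 1.91% in the wild type, so replicate 2 was higher in both groups there too. Among the larger marker sums above, those of neural stem cells and neurons were also higher in replicate 2 of both groups. The oligodendrocyte lineage sum was lower in replicate 2 of both, and the astrocyte sum was lower in the knockout and higher in the wild type. The part of length, of other RNA differences between the libraries or of the cultures' state in the shift was not tested. In bulk samples more ribosomal protein RNA per cell and more cells rich in it cannot be told apart.

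**Figure D4:**
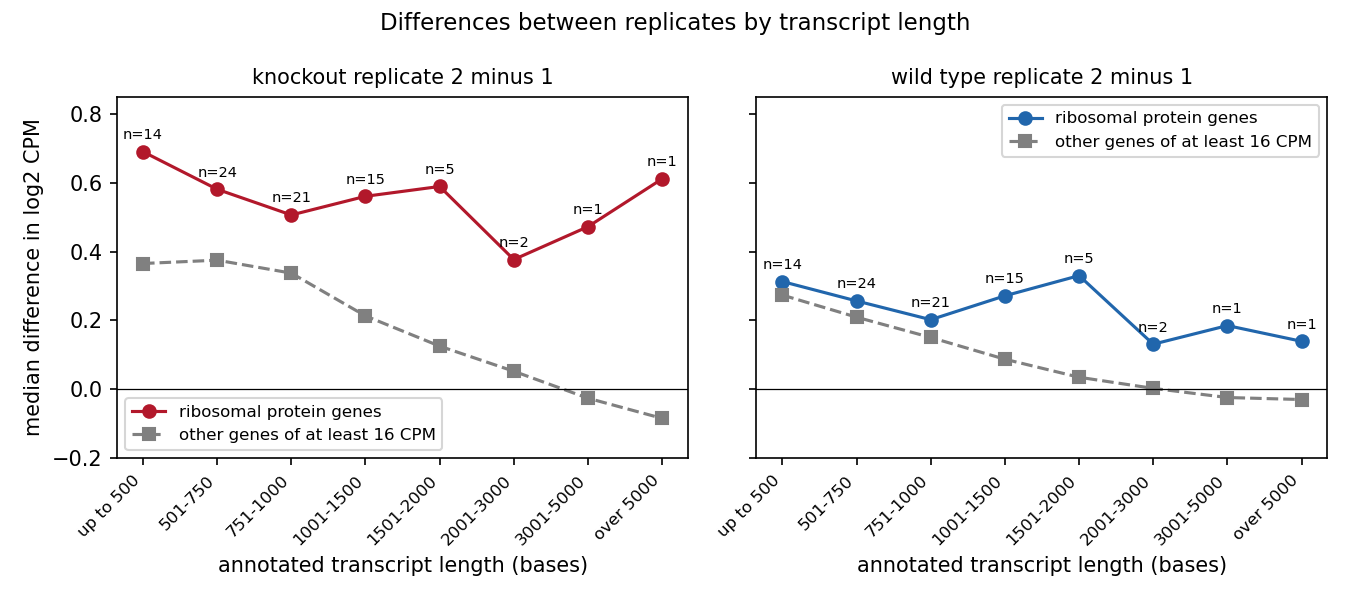
Median difference in log2 CPM between replicate 2 and replicate 1 (y axis) of the knockout (left) and the wild type (right), by annotated transcript length in bases (x axis), for ribosomal protein genes (solid, n above each point) and other genes of at least 16 CPM (dashed). The dashed line is lowest for the longest transcripts, and the solid line lies above it in each bin, though the bins over 1500 bases hold few ribosomal protein genes.

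Among tested genes with a promoter window, the median shift in knockout replicate 2 was 0.46 for 14 genes with the pyrimidine tract at the annotated start and 0.40 for 48 genes without it. In knockout replicate 1 the medians were -0.19 and -0.15. Genes with CCGGAA (35 tested) and without it (27 tested) stood at 0.44 and 0.40 in knockout replicate 2. With CACGTG (6 tested) and without it (56 tested) the medians were 0.45 and 0.40, and with TATAAA (7 tested) and without it (55 tested) 0.52 and 0.40. The shifts over the family ranged from -0.03 to 0.80.

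Other genes of protein synthesis were taken from textbook lists. Among 22 translation factors and further genes whose messenger RNAs carry the pyrimidine tract, 16 lay above 0 and 6 below in log2 fold change (median 0.12). Of all genes tested 49.7% lay above 0. EdgeR called 0 of the 22, where 0.00502% of all genes were called. At an unadjusted p under 0.05 there were 0 of the 22, where 2.77% of all genes were. Their median shift was -0.10 in knockout replicate 1 and 0.28 in knockout replicate 2, the same order as for the ribosomal proteins. This list includes Fau and Rack1. Eif4b, an initiation factor, read 309 and 431 CPM in the knockout and 287 and 303 CPM in the wild type (0.33), and Naca, which binds nascent chains, 342 and 541 against 302 and 380 CPM (0.38). Without knockout replicate 2 these log2 fold changes were 0.071 for Eif4b and 0.0080 for Naca.

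Genes that assemble ribosomes moved less. Of 28 assembly factors 15 lay above 0 and 13 below (median log2 fold change 0.01), with median shifts of -0.04 and 0.03 in knockout replicates 1 and 2. Gtpbp4, a nucleolar GTPase, read 105 and 120 CPM in the knockout and 90.5 and 108 CPM in the wild type (0.18). Nop10, a small protein of particles that modify RNA, read 50.8 and 75.8 against 45.2 and 61.0 CPM (0.25). Of 15 genes of RNA polymerase I, which transcribes ribosomal RNA, and its factors, 10 lay above 0 and 5 below (median 0.05), among them Znrd1 (0.23) and Taf1d (0.17). Of 15 genes of the mTOR pathway and the Myc family, 7 lay above 0 and 8 below (median -0.01). Eif4ebp1, a translation repressor that mTOR inactivates, read 16.6 and 26.3 CPM in the knockout and 15.1 and 16.4 CPM in the wild type (0.44), and the mTOR inhibitor gene Deptor 1.95 and 1.15 against 2.64 and 1.89 CPM (-0.53). Without knockout replicate 2 they were 0.078 for Eif4ebp1 and -0.20 for Deptor. In these 3 lists 0 genes were called by edgeR, where 0.00502% of all genes tested were. An unadjusted p under 0.05 was found for 0 of them, where 2.77% of all genes had one. A log2 fold change above 0 was found for 49.7% of all genes. The differences between these lists and the ribosomal protein genes were not tested.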

How the data were processed

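The values analysed are raw counts per gene, deposited by the authors as 1 file per library and not normalised. The submitters' processing notes list featureCounts, STAR 2.7.10 and build GRCm39. No source used here gives the strand setting or how reads matching several genes were handled, so counts of near-identical copies are uncertain. Symbols, gene types and transcript lengths came from GENCODE M21 (GRCm38), which matched 52081 of 55414 identifiers. Length is that of the principal protein-coding transcript with the best support level. The genes and lists were chosen with earlier results of these data known.

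Genes were filtered with filterByExpr (minimum count 10, 19912 left) and scaled with TMM. The genotypes were compared by the quasi-likelihood test (robust=TRUE) of edgeR 4.0.16 under R 4.3.3. The adjusted p is Benjamini-Hochberg over all genes tested, called under 0.05. The SE is |log2 fold change| divided by the square root of the F statistic. Shifts per library use log2 CPM with a prior count of 2. DESeq2 1.42.0 and limma-voom (3.58.1) were alternatives.

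The genes named are Mettl4, the paralog sets, genes of set roles, the 4 smallest p in each direction, the 5 highest and 5 lowest levels per kilobase, Rps19bp1, and 2 per list. Some genes that this rule names are not reported here.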

Additional observations from a re-analysis of the deposited data

How the results depend on the processing

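With each library left out in turn, in fits that assume a lone library to vary like the others, the number of genes called ran from 1 to 47 against 1 (edgeR, adjusted p under 0.05), the ribosomal protein genes called stayed at 0, those with a positive log2 fold change ran from 2 to 82 against 78, and their median from -0.17 (without knockout replicate 2) to 0.40 (without knockout replicate 1) against 0.14. Mettl4 ran from -2.06 to -1.89 and was called each time. The share of counts, knockout minus wild type, ran from -0.26 to 0.84 percentage points against 0.29. Among 37 named genes 25 turned sign when knockout replicate 2 was left out, 5 when knockout replicate 1 was, and 7 and 1 when wild type replicates 1 and 2 were. The ranges of log2 fold change of those that turned in any of these fits were Rpl3 -0.13 to 0.29, Rpl7 -0.12 to 0.42, Rpl7l1 -0.11 to 0.18, Rpl10 -0.092 to 0.40, Rpl22 -0.19 to 0.14, Rpl36a -0.029 to 0.52, Rpl36al -0.17 to 0.41, Rpl39 -0.20 to 0.74, Rps4x -0.13 to 0.26, Rps27 -0.16 to 0.78, Rps27l -0.028 to 0.45, Rps27rt -0.13 to 0.56, Rplp0 -0.14 to 0.18, Rplp1 -0.20 to 0.30, Rplp2 -0.056 to 0.13, Rpl5 -0.085 to 0.38, Rpl11 -0.26 to 0.38, Rpsa -0.23 to 0.35, Rps6 -0.17 to 0.21, Rps27a -0.11 to 0.69, Fau -0.19 to 0.42, Rack1 -0.093 to 0.35, Rpl31 -0.023 to 0.55, Rps19bp1 -0.39 to 0.11, Rpl8 -0.19 to 0.12, Rps2 -0.18 to 0.12, Rps15a -0.24 to 0.37, Nop10 -0.064 to 0.51, Znrd1 -0.11 to 0.50, Taf1d -0.027 to 0.35. Those that kept their sign ran from 0.063 to 0.73 for Rpl22l1, 0.50 to 1.60 for Rps4l, 0.071 to 0.55 for Eif4b, 0.0080 to 0.67 for Naca, 0.063 to 0.33 for Gtpbp4, 0.078 to 0.74 for Eif4ebp1 and -0.97 to -0.20 for Deptor. The paralog share of Rps27l, knockout minus wild type, ran from -7.37 to 2.41 percentage points and that of Rpl7l1 from -0.62 to 0.014. The cause was not tested beyond the values given with the results.

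Genes called over all were 41 without a low-count filter, 6 with DESeq2 and 9 with the replicate block, and 1 with RLE factors, library totals, TMM without ribosomal protein genes, at least 1 CPM in 2 libraries, limma-voom, robust=FALSE, protein-coding genes only, added pseudogene counts, and removal of the length or GC trend. Ribosomal protein genes called stayed at 0 in all of these, with the median between 0.12 and 0.17 and 77 to 81 genes positive. The replicate block, for which no label marks pairs (correlation of same-numbered deviations 0.23), left 77 positive, with 10 at an unadjusted p under 0.05 (12%, against 7.83% of all genes). Without a low-count filter 5 were at that p (5.95%, against 3.06%). The trend removals and the coding length were chosen after seeing the data. Small values turned sign, Rpl22 to 0.00083 with the length trend removed, and Rpl8 to 0.038 and Rps2 to 0.036 with the GC trend removed. By coding length the paralog share of Rpl7l1 differed by -0.67 percentage points, against -0.30. With 2 libraries a group, the standard error of a ribosomal protein gene was at least 0.15, which limits what could be called.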
